A study of Mus musculus with 9 samples.

Results

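The genes described here are 34 mouse genes of purine and pyrimidine nucleotide synthesis, named individually as enzymes of these pathways. The rule holds no measured value, but the genes were chosen with earlier results of these data known. All 34 were matched by symbol to 1 gene identifier each among the 55573 in the count tables, and all 34 were among the 13328 genes with enough reads to be tested. RNA was sequenced from splenic CD4+ T cells of B6 mice, with no age or sex in the labels, in 3 groups of 3 libraries. In the first group the cells were activated for 3 hours with anti-CD3 and anti-CD28, antibodies that stimulate cells through the antigen receptor complex and a costimulatory receptor, at 39 °C, a febrile temperature. In the second the same activation was done at 37 °C, and in the third the cells were naive and unactivated. The labels name both CD4+ cells and whole spleen cells as what was cultured, and do not say whether naive cells spent time in medium.

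Nucleotides are made by stepwise de novo pathways from amino acids, bicarbonate, one-carbon units carried by folate and the activated sugar phosphoribosyl pyrophosphate (PRPP), or by salvage of bases and nucleosides. Purines are built on PRPP up to IMP, which is then turned into AMP or GMP, whereas the pyrimidine ring is closed first and then joined to PRPP to give UMP, the source of CTP. Ribonucleotide reductase turns ribonucleotides into the deoxynucleotides used for DNA. T cells are known to depend on de novo synthesis when they proliferate, and IMP dehydrogenase and dihydroorotate dehydrogenase are targets of immunosuppressive drugs.

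Most of the 34 genes were higher in activated than in naive cells. None passed the test between the temperatures, where only 0.758% of all genes tested did. At 39 °C 23 rose and 6 fell relative to naive cells, 67.6% and 17.6% of the 34, against 29.2% and 29.8% of all genes tested and 58.9% of them in either direction. At 37 °C 21 rose and 7 fell, 61.8% and 20.6%, against 30.9% and 31.8% of all genes tested and 62.7% in either direction. These shares of all genes also stand beside the counts by role given below. The largest rises were in Umps and Ctps of pyrimidine synthesis and in Nme2, a kinase gene with few counts, and the largest fall was in Ampd3, an AMP deaminase gene. Calls are edgeR quasi-likelihood F tests at an adjusted p of 0.05 (Benjamini-Hochberg over all genes tested). At 39 °C 11 genes rose by at least 2-fold and 1 fell by as much, and at 37 °C 10 rose and 1 fell by as much. The median log2 fold change of the 34 was 0.58 at 39 °C and 0.60 at 37 °C, beside medians close to 0 over all genes tested (-0.0027 and -0.0025). Both activation comparisons share the naive libraries, so their results are given side by side and are not independent. The summed level of the 34 genes was 2860 ± 48.3 CPM at 39 °C, 2896 ± 43.8 CPM at 37 °C and 1919 ± 99.1 CPM in naive cells. CPM are counts per library put on a common scale, ± is the SD over 3 libraries beside CPM, and it is the standard error of the fit beside a log2 fold change.

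**Figure D1:**
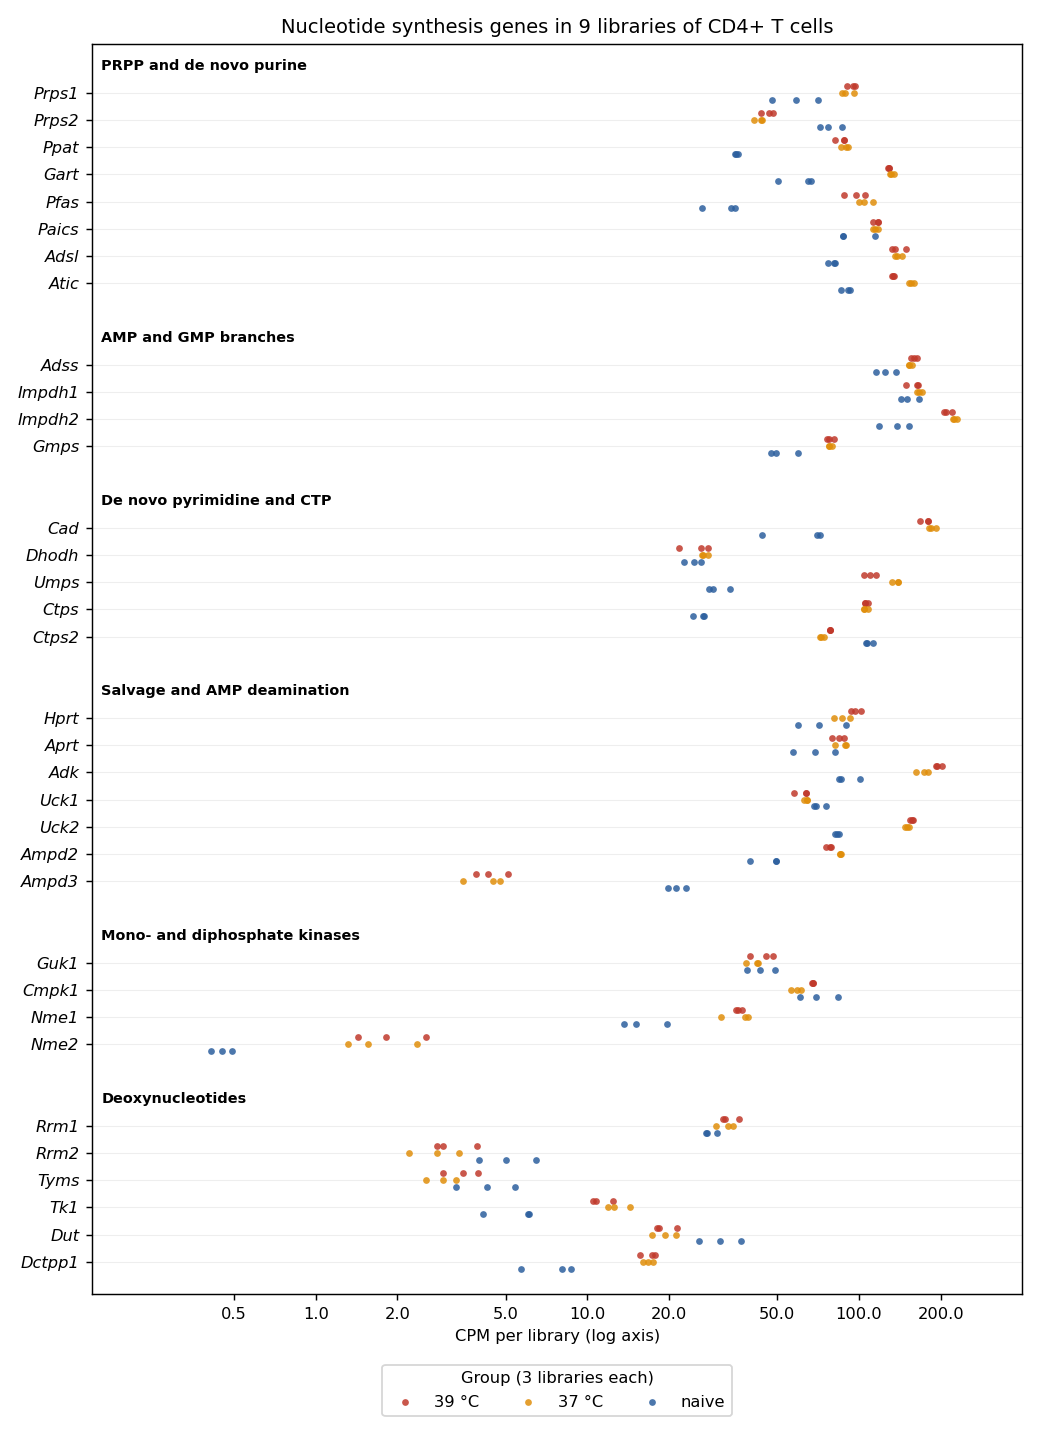
Level of each of the 34 genes in every library, in CPM on a log axis, with 1 point per library coloured by group and genes ordered by role. Naive points lie to the left of the activated points for most genes of de novo synthesis, and to the right for Prps2, Ctps2, Uck1, Ampd3, Rrm2 and Dut.

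The libraries held 12647692 to 17605549 counts. The labels leave unsaid whether libraries of 1 group came from different mice or cultures, so p-values may measure technical spread only. T cell markers were present in every library, with 8 of 8 tested, and Cd4 was at 598 CPM or more throughout. The 8 summed to 5295 CPM at 39 °C, 5102 CPM at 37 °C and 4700 CPM in naive cells. Against naive cells 1 was called higher and 2 lower at 39 °C, and 2 higher and 3 lower at 37 °C. Cd5 alone had 1298 CPM at 39 °C, 1263 CPM at 37 °C and 536 CPM in naive cells, whereas Cd4 had 614, 611 and 799 CPM. Markers of most other spleen cells were lower in activated libraries. The 10 B cell markers, of which 9 fell and 1 rose in both comparisons, summed to 289 to 301 CPM at 39 °C, 263 to 277 CPM at 37 °C and 766 to 916 CPM in naive cells. The 6 erythroid markers summed to 2.94 to 4.18 CPM at 39 °C, 2.79 to 3.22 CPM at 37 °C and 135 to 225 CPM in naive cells. The 9 myeloid markers, with Cd14 at 0 at 39 °C and S100a9 at 0 at 37 °C, summed to at most 3.55 CPM in activated and 13.7 to 16.9 CPM in naive libraries. Ribosomal protein genes, 79 in all, took 7.27% to 8.80% of the counts at 39 °C, 6.85% to 7.80% at 37 °C and 13.0%, 9.08% and 10.6% in naive libraries 1, 2 and 3. Summed levels at 39 °C, at 37 °C and in naive cells were 13.6, 14.3 and 30.8 CPM for 2 CD8 markers, 17.7, 18.7 and 36.4 CPM for 4 NK cell markers, 159, 134 and 302 CPM for 4 stromal markers and 6.30, 6.53 and 6.83 CPM for 4 platelet markers, of which Pf4 was at 0 throughout. The part of these cells and of this share in the activation results was not tested, and in bulk RNA fewer cells of a type and less RNA per cell cannot be told apart.

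The promoters of 5 genes that rose are printed because they hold a motif that was searched for, and because Ppat and Paics lie head to head. Each window runs from 250 bases before to 50 after the RefSeq gene start (GRCm38.p6), written 5′ to 3′ on the gene's strand, with matches in capitals. CACGTG is the E-box bound by MYC with MAX and by related factors, and GCGGGAAA is the reverse complement of TTTCCCGC, a site of the E2F type. Ppat holds GCGGGAAA at -211 and -158 from the start, and CACGTG begins at -203 in Paics, -7 in Atic, -110 in Impdh2 and -18 in Nme1.
Ppat (chr5:76951529-76951828, minus strand): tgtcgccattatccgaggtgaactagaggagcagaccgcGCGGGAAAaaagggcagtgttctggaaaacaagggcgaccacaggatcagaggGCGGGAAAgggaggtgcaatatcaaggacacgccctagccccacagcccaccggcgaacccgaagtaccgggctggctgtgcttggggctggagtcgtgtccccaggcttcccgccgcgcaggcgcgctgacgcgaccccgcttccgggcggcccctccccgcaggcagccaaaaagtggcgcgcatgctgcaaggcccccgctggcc
Paics (chr5:76951052-76951351, plus strand): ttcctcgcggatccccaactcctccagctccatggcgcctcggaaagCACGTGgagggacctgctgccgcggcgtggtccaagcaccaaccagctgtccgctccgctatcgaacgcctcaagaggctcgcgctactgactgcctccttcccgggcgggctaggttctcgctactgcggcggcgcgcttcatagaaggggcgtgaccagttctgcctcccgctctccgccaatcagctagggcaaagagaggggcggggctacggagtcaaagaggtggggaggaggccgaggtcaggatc
Atic (chr1:71556906-71557205, plus strand): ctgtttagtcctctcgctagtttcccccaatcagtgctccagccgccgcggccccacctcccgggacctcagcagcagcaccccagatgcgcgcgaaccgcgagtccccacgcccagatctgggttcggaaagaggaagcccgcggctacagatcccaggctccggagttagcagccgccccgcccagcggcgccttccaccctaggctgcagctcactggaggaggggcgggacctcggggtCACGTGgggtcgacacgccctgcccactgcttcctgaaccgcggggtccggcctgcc
Impdh2 (chr9:108560186-108560485, plus strand): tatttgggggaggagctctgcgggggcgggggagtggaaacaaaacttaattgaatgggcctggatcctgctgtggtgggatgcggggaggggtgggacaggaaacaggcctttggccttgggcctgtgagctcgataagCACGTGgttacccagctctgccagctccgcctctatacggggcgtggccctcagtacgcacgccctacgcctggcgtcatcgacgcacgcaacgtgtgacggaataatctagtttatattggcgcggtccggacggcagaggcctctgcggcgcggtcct
Nme1 (chr11:93968223-93968522, minus strand): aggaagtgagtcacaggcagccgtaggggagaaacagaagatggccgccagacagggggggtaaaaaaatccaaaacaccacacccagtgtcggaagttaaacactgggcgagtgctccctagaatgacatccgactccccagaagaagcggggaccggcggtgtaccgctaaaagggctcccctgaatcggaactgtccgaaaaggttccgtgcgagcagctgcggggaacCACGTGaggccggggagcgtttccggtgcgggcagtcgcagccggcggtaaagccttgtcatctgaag
Of the 34 genes 32 had a window, Pfas and Dhodh being the exceptions. CACGTG was found in 6 of the 32 (Ampd3, Atic, Impdh2, Nme1, Paics and Tyms), 18.8%, against 8.09% of the 27025 genes with a window. TTTCCCGC on either strand was found in Ppat and Prps2, 6.25%, against 1.24%. TTTGGCGC and TTTCGCGC were in none of the 32, against 0.585% and 0.374%. The sets are unlike, because all 34 genes had enough reads to be tested, whereas the 27025 include genes that did not. Shares among the 13328 genes tested were not computed. A match is a run of letters and does not show binding. Of the genes with a match, the 5 printed ones were picked from those that rose, so their rise is no result. Of all 34 genes 67.6% were called higher at 39 °C and 61.8% at 37 °C. Ampd3 and Prps2 fell at both temperatures, and Tyms was called lower at 37 °C. Myc itself was fixed by name because its product is a known activator of nucleotide synthesis genes. It had 566 CPM at 39 °C, 610 CPM at 37 °C and 99.0 CPM in naive cells. Its log2 fold change was 2.52 ± 0.074 at 39 °C and 2.62 ± 0.074 at 37 °C (edgeR adjusted p = 9.44e-11 and 6.88e-11). A link of the matches or of Myc to the changes of the 34 genes was not tested.

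The 8 genes of PRPP and IMP synthesis rose with 1 exception, 7 being higher and 1 lower at both temperatures. Their summed level was 840 CPM at 39 °C, 870 CPM at 37 °C and 532 CPM in naive cells. Ppat, the amidotransferase of the first committed step (ENSMUSG00000029246, chromosome 5, 76913249 to 76951578), had 82.0, 88.5 and 88.4 CPM at 39 °C, 85.8, 90.8 and 89.9 CPM at 37 °C and 34.9, 35.3 and 35.7 CPM in naive libraries. All activated libraries lay far above all naive ones, and the naive libraries were within 1 CPM of each other. Its log2 fold change was 1.29 ± 0.064 at 39 °C and 1.33 ± 0.064 at 37 °C (edgeR adjusted p = 8.75e-09 and 5.97e-09).

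Pfas, which makes the amidine intermediate of the ring (ENSMUSG00000020899, chromosome 11, 68985697 to 69008460), had 88.3, 97.4 and 105 CPM at 39 °C, 104, 112 and 99.8 CPM at 37 °C and 26.5, 35.0 and 33.9 CPM in naive libraries. This was the largest rise of the purine genes, with no overlap between activated and naive libraries, at log2 fold changes of 1.61 ± 0.107 and 1.73 ± 0.107 (edgeR adjusted p = 1.08e-07 and 5.18e-08). Gart, a protein with 3 activities in the pathway, had 128 to 129 CPM at 39 °C, 131 to 135 CPM at 37 °C and 50.5, 65.0 and 66.8 CPM in naive libraries. It rose by 1.08 ± 0.092 at 39 °C and 1.12 ± 0.092 at 37 °C, and the first naive library was the lowest. Of Gart's exon bases 19.7% overlap the antisense gene Gm15964, which had 1.81 CPM in naive cells and 3.14 CPM at most in the activated means. How reads in shared bases were counted is not given in the sources used here, so these low counts do not show the level of Gm15964.

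Adsl, the lyase that acts both before IMP and on the way to AMP, had 132 to 149 CPM at 39 °C, 136 to 144 CPM at 37 °C and 76.8 to 81.4 CPM in naive libraries, and rose by 0.80 ± 0.068 at both temperatures. Atic, which closes the purine ring to IMP, had 85.7 to 93.1 CPM in naive libraries, below all activated ones, and rose by 0.57 ± 0.06 at 39 °C and 0.79 ± 0.06 at 37 °C. Paics, which acts between Pfas and Adsl, showed the smallest rise of the group. It had 117, 118 and 113 CPM at 39 °C, 114, 113 and 118 CPM at 37 °C and 115, 87.7 and 87.3 CPM in naive libraries. The first naive library lay among the activated ones, so the groups overlapped. The log2 fold change of Paics was 0.27 ± 0.095 at 39 °C and 0.25 ± 0.096 at 37 °C (edgeR adjusted p = 0.0308 and 0.0354). Both calls ended without 39 °C library 1 or 2 or naive library 2 or 3, and the call at 37 °C also without any 1 of the 37 °C libraries and with the 6 libraries of the comparison alone. Over all libraries left out in turn the values ranged from 0.20 to 0.41 at 39 °C and from 0.18 to 0.40 at 37 °C, the highest without naive library 1, where both calls held. The first naive library was also the one with the highest ribosomal protein share. Ppat and Paics are transcribed in opposite directions and their exons share 272 bases at the 5′ ends, and the strand setting of the counts is not given in the sources used here, so reads there may belong to either gene.

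The PRPP synthetases, which supply the sugar for every route, moved in opposite directions. Prps1 had 90.4 to 96.7 CPM at 39 °C, 89.2, 86.6 and 95.7 CPM at 37 °C and 70.9, 48.0 and 58.8 CPM in naive libraries, higher in all activated libraries. Prps2 had 46.7, 43.6 and 48.1 CPM at 39 °C, 41.2, 43.9 and 43.6 CPM at 37 °C and 87.0, 77.2 and 72.2 CPM in naive libraries, lower in all activated libraries. The log2 fold changes at 39 °C and 37 °C were 0.67 ± 0.113 and 0.61 ± 0.113 for Prps1 and -0.77 ± 0.08 and -0.88 ± 0.081 for Prps2. Prps1 shares 10.1% of its 50-base stretches with the paralog Prps1l3, which rose by 0.56 and 0.51.

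Of the 4 genes that lead from IMP to AMP and GMP, 3 rose and 1 was not called at either temperature. Impdh2, the IMP dehydrogenase known to be induced in proliferating cells, had 220, 209 and 206 CPM at 39 °C, 223, 222 and 230 CPM at 37 °C and 153, 118 and 138 CPM in naive libraries. Its log2 fold change was 0.63 at 39 °C and 0.72 at 37 °C, with all activated libraries above all naive ones (edgeR adjusted p = 5.21e-05 and 1.65e-05). Impdh2 shares 73.9% of its 50-base stretches with the pseudogene Impdh2-ps, which had 2.03 CPM or less in the group means. Reads that match both may have been left uncounted, so this value does not show the level of the pseudogene. Its isozyme gene Impdh1 had 160 ± 8.94 CPM at 39 °C, 166 ± 3.61 CPM at 37 °C and 153 ± 11.7 CPM in naive cells, with log2 fold changes of 0.06 and 0.12 that were not called. Gmps, the GMP synthetase gene, had 76.4 to 81.2 CPM at 39 °C, 77.3 to 79.4 CPM at 37 °C and 47.6 to 59.5 CPM in naive libraries, and rose by 0.59 and 0.58. Adss, the adenylosuccinate synthetase gene, had 156 to 163 CPM at 39 °C, 153 to 157 CPM at 37 °C and 116 to 137 CPM in naive libraries, and rose by 0.34 and 0.30. Neither overlapped between activated and naive libraries. The summed level of the 4 genes was 609 CPM at 39 °C, 624 CPM at 37 °C and 468 CPM in naive cells.

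De novo pyrimidine and CTP synthesis held the largest rises apart from that of Nme2. Of its 5 genes, 3 rose, Ctps2 fell and Dhodh was not called at either temperature. The summed level was 495 CPM at 39 °C, 528 CPM at 37 °C and 251 CPM in naive cells. Cad encodes the protein that carries out the first 3 steps of the ring (ENSMUSG00000013629, chromosome 5, 31054780 to 31078479). It had 168, 180 and 180 CPM at 39 °C, 181, 193 and 184 CPM at 37 °C and 44.1, 72.1 and 70.0 CPM in naive libraries. The groups did not overlap, and naive library 1 lay well below the other naive ones. The log2 fold change was 1.50 ± 0.143 at 39 °C and 1.58 ± 0.143 at 37 °C (edgeR adjusted p = 2.5e-06 and 1.45e-06).

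Umps, which makes UMP (ENSMUSG00000022814, chromosome 16, 33954782 to 33967038), had 116, 110 and 105 CPM at 39 °C, 139, 133 and 139 CPM at 37 °C and 33.5, 28.0 and 28.9 CPM in naive libraries. Its 3 groups did not overlap, with 37 °C highest. The log2 fold change against naive cells was 1.87 ± 0.08 at 39 °C and 2.18 ± 0.08 at 37 °C (edgeR adjusted p = 2.21e-09 and 6.09e-10). Ctps, the CTP synthase whose human counterpart is required for lymphocyte proliferation (ENSMUSG00000028633, chromosome 4, 120539868 to 120570276), had 108, 105 and 105 CPM at 39 °C, 105, 104 and 108 CPM at 37 °C and 26.9, 24.4 and 26.6 CPM in naive libraries. The activated libraries were nearly equal and lay about 4-fold above the naive ones, at log2 fold changes of 2.03 ± 0.066 and 2.02 ± 0.066 (edgeR adjusted p = 2.29e-10 and 2.24e-10). The paralog Ctps2 had 78.0, 78.3 and 78.3 CPM at 39 °C, 71.7, 74.2 and 72.6 CPM at 37 °C and 112, 106 and 107 CPM in naive libraries. It fell by 0.47 on the log2 scale at 39 °C and fell by 0.58 at 37 °C, without overlap. Dhodh, the mitochondrial dehydrogenase between Cad and Umps, had 26.2, 27.7 and 21.7 CPM at 39 °C, 26.7, 27.7 and 26.4 CPM at 37 °C and 26.2, 22.7 and 24.7 CPM in naive libraries. Its log2 fold changes of 0.04 at 39 °C and 0.14 at 37 °C were not called (edgeR adjusted p = 0.76 and 0.254).

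**Figure D2:**
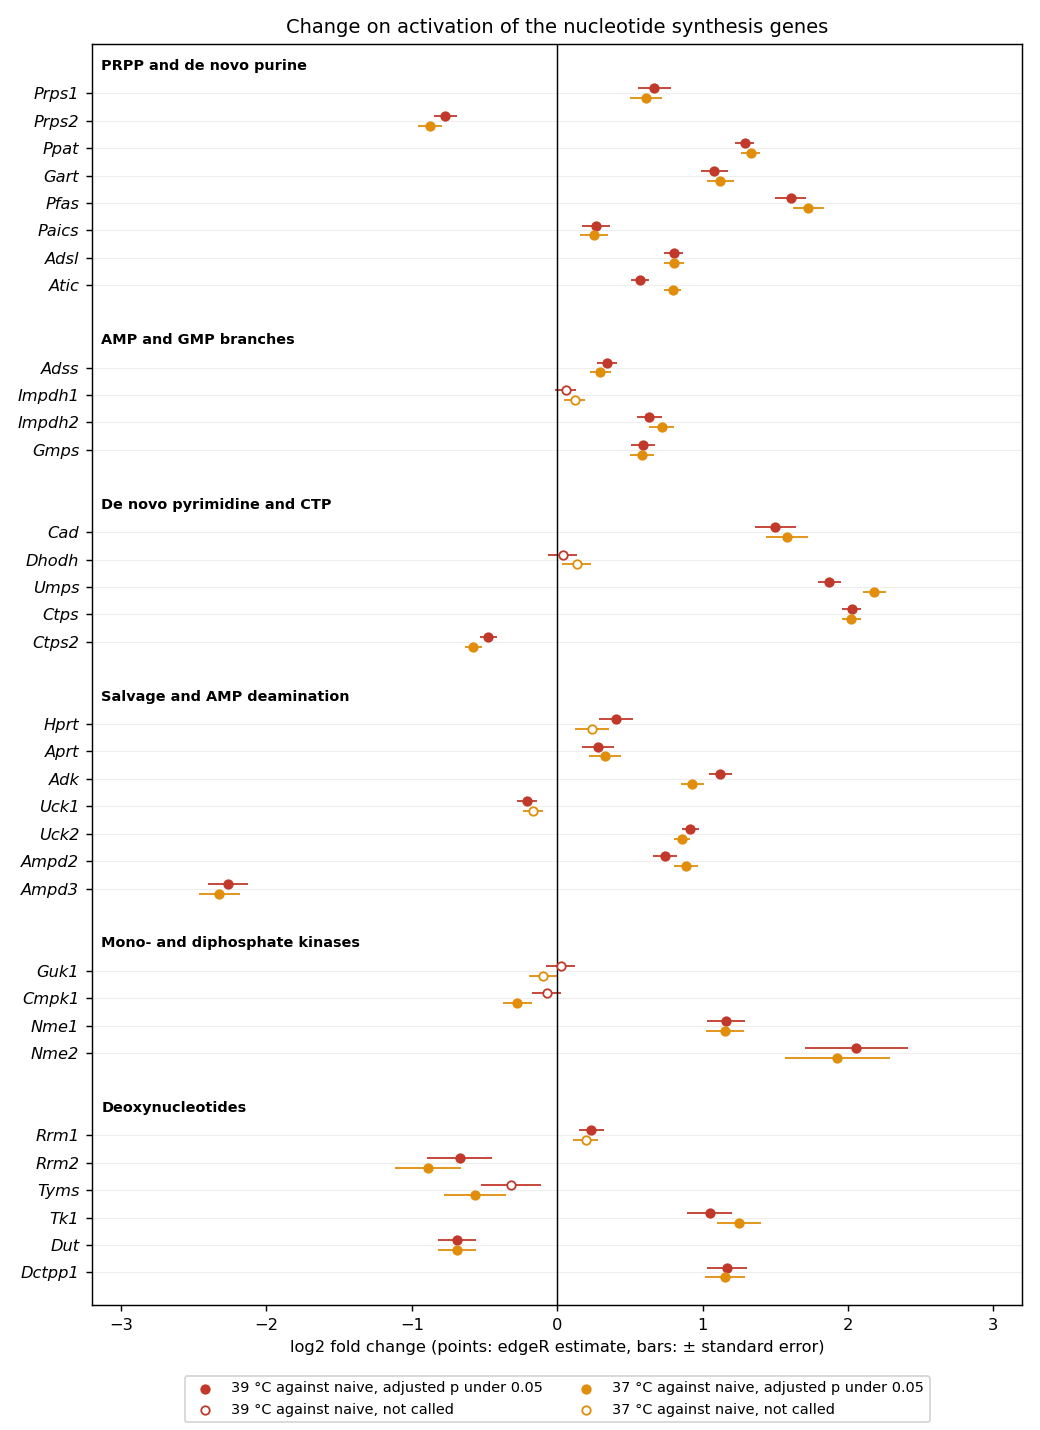
Log2 fold change of each gene at 39 °C and at 37 °C against naive cells, with bars of 1 standard error and filled points for an edgeR adjusted p under 0.05. Umps, Ctps and Nme2 lie farthest to the right, at 1.87 to 2.18, and Ampd3 farthest to the left, at -2.27 and -2.32.

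Among the 7 genes of salvage and AMP deamination, 5 were higher and 2 lower at 39 °C, and 4 were higher and 1 lower at 37 °C. Adk, adenosine kinase, which returns adenosine to AMP, had 203, 194 and 193 CPM at 39 °C, 174, 162 and 180 CPM at 37 °C and 101, 85.7 and 84.6 CPM in naive libraries. Every activated library was above every naive one, and Adk rose by 1.12 at 39 °C and 0.93 at 37 °C on the log2 scale. Uck2, a uridine-cytidine kinase, rose by 0.92 and 0.86, with 154 to 159 CPM at 39 °C, 148 to 153 CPM at 37 °C and 81.7 to 84.3 CPM in naive libraries. Its paralog Uck1 had 61.8 ± 3.39 CPM at 39 °C, 63.7 ± 0.987 CPM at 37 °C and 71.3 ± 3.80 CPM in naive cells. The log2 fold change of Uck1 was -0.21 at 39 °C (edgeR adjusted p = 0.0203) and -0.16 at 37 °C (edgeR adjusted p = 0.0538). The first of these was not called without 39 °C library 3 (-0.16) or naive library 3 (-0.16), with no count filter or with the 6 libraries of the comparison alone. The second was called without naive library 1 (-0.18) or 2 (-0.19) and under library size scaling. Uck1 also shares 24.3% of its 50-base stretches with the gene model Gm4482.

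The genes of purine base salvage had smaller fold changes. Hprt, which recycles hypoxanthine and guanine, had 102, 96.9 and 93.3 CPM at 39 °C, 86.5, 81.3 and 92.6 CPM at 37 °C and 89.4, 59.8 and 71.2 CPM in naive libraries. At 39 °C it was above all naive libraries and rose by 0.41 (edgeR adjusted p = 0.011), whereas at 37 °C it overlapped them, at 0.24 (edgeR adjusted p = 0.0975). The value at 37 °C was called without naive library 1 (0.40) and with no count filter (0.24). Aprt, which recycles adenine, had 84.0 ± 4.23 CPM at 39 °C, 86.7 ± 4.52 CPM at 37 °C and 81.5, 57.0 and 68.7 CPM in naive libraries, with overlap. Its rises of 0.28 and 0.33 (edgeR adjusted p = 0.0415 and 0.02) ranged from 0.16 to 0.42 at 39 °C and from 0.21 to 0.46 at 37 °C when 1 library was left out. Both calls ended without 37 °C library 1 or 3 or naive library 2 or 3, and the call at 39 °C also without 39 °C library 1 or 2 and with the 6 libraries of the comparison alone.

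The AMP deaminase genes Ampd2 and Ampd3 moved in opposite directions. Ampd3, known as the erythrocyte isoform (ENSMUSG00000005686, chromosome 7, 110768206 to 110812405), had 4.30, 3.89 and 5.09 CPM at 39 °C, 4.50, 4.76 and 3.49 CPM at 37 °C and 19.8, 23.1 and 21.3 CPM in naive libraries. Every activated library was below every naive one, and the log2 fold change was -2.27 ± 0.138 at 39 °C and -2.32 ± 0.139 at 37 °C (edgeR adjusted p = 4.8e-08 and 3.76e-08). The 5 erythroid markers tested fell too, with a median log2 fold change of -5.65 at 39 °C and -6.07 at 37 °C, and their part in the fall of Ampd3 was not tested. Ampd2 had 78.1, 78.9 and 75.3 CPM at 39 °C, 84.9, 85.3 and 86.2 CPM at 37 °C and 39.8, 49.5 and 49.3 CPM in naive libraries. It rose by 0.74 at 39 °C and 0.89 at 37 °C, with no overlap. Of its exon bases 8.31% overlap the antisense gene Gm12500, as 6.11% of those of Umps overlap Gm15829. Both antisense genes were at 0.348 CPM or less in every library, but reads in shared bases may have been left uncounted.

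Of the 4 kinases that add the later phosphates, Nme1 and Nme2 were higher at both temperatures. Nme1, a nucleoside diphosphate kinase, had 37.1, 35.3 and 36.0 CPM at 39 °C, 37.9, 30.9 and 39.2 CPM at 37 °C and 19.7, 13.7 and 15.2 CPM in naive libraries, and rose by 1.16 and 1.15 without overlap. Nme2 is listed at few counts, 81 over the 3 libraries at 39 °C, 72 at 37 °C and 21 in naive cells. Of its exon bases 48.9%, and of those of Nme1 12.5%, lie in the readthrough gene model Gm20390, which had 0 counts in all libraries. The handling of reads in overlapping genes is not given in the sources used here, and it bears on Nme1 too. The log2 fold changes of Nme2, 2.06 ± 0.355 and 1.93 ± 0.361, are therefore uncertain. Guk1, guanylate kinase, had 44.5 ± 4.37 CPM at 39 °C, 41.0 ± 2.15 CPM at 37 °C and 43.8 ± 5.25 CPM in naive cells and was not called. Cmpk1, the UMP-CMP kinase, had 67.9, 67.2 and 67.7 CPM at 39 °C, 59.1, 56.1 and 61.4 CPM at 37 °C and 83.5, 60.4 and 69.5 CPM in naive libraries. It was not called at 39 °C (-0.07) and called lower at 37 °C (-0.27, edgeR adjusted p = 0.0318) despite overlap. That call ended without any 1 of the 37 °C libraries, 39 °C library 2 or naive library 1 or 3, and with the 6 libraries of the comparison alone. Over all libraries left out in turn the value ranged from -0.38 to -0.14, the smallest size without naive library 1.

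The deoxynucleotide genes were mixed. At 39 °C 3 of 6 were higher and 2 lower, 50% and 33.3%, against 29.2% and 29.8% of all genes tested. At 37 °C 2 were higher and 3 lower, 33.3% and 50%, against 30.9% and 31.8%. Their summed level was 87.4 CPM at 39 °C, 87.0 CPM at 37 °C and 81.7 CPM in naive cells. Tk1, thymidine kinase, had 10.8, 10.5 and 12.5 CPM at 39 °C, 12.5, 14.3 and 12.0 CPM at 37 °C and 4.12, 6.10 and 6.03 CPM in naive libraries, and rose by 1.05 and 1.25 without overlap. Dctpp1, a pyrophosphatase that clears dCTP and modified cytidine nucleotides, had 16.9 ± 1.10 CPM at 39 °C, 16.7 ± 0.722 CPM at 37 °C and 7.47 ± 1.58 CPM in naive cells and rose by 1.17 and 1.15. Dut, which hydrolyses dUTP, had 19.2 ± 1.79 CPM at 39 °C, 19.3 ± 1.93 CPM at 37 °C and 36.7, 25.8 and 30.7 CPM in naive libraries, above every activated library. It fell by 0.69 on the log2 scale at both temperatures.

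Rrm1 and Rrm2, the large and small subunits of ribonucleotide reductase, had fold changes of opposite sign. Rrm1 had 33.3 ± 2.44 CPM at 39 °C, 32.4 ± 2.35 CPM at 37 °C and 28.3 ± 1.44 CPM in naive cells. It was called higher at 39 °C (0.23, edgeR adjusted p = 0.0335) and not called at 37 °C (0.19, edgeR adjusted p = 0.0664). The first call ended without 39 °C library 1 (0.25) or 2 (0.18) or naive library 3 (0.21), and in DESeq2, under library size scaling and with no count filter. The second value was called without 37 °C library 2 (0.26) or naive library 2 (0.24). Rrm2, the subunit that is limiting in S phase, had 3.92, 2.94 and 2.79 CPM at 39 °C, 3.36, 2.21 and 2.79 CPM at 37 °C and 6.46, 3.996 and 5.02 CPM in naive libraries. It was low everywhere and lowest in activated libraries, at -0.67 and -0.89 on the log2 scale (edgeR adjusted p = 0.0214 and 0.00495). The call at 39 °C ended without 39 °C library 2 or 3 or naive library 1, at -0.61, -0.57 and -0.48. Tyms, thymidylate synthase, had 3.47 ± 0.516 CPM at 39 °C, 2.93 ± 0.369 CPM at 37 °C and 4.34 ± 1.07 CPM in naive cells. It was not called at 39 °C (-0.32) and was called lower at 37 °C (-0.57, edgeR adjusted p = 0.0347). That call ended in DESeq2, with the 6 libraries of the comparison alone and without 37 °C library 2 or 3 or naive library 1 or 3, at -0.58 to -0.39.

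Per kilobase of exon, Hprt, Impdh2, Aprt and Impdh1 had the highest levels of the 34 genes in all 3 groups. Exon length here is the union over all transcripts of a gene, which for some genes is far longer than 1 transcript. Adk has 8526 such bases against 1818 in its longest coding transcript, so the places depend on the length used. Hprt had 75.5 CPM per kb at 39 °C, 67.3 CPM per kb at 37 °C and 57.0 CPM per kb in naive cells, and Impdh2 had 68.8, 73.0 and 44.4 CPM per kb in the same order of groups. Tyms, at 0.569, 0.481 and 0.712 CPM per kb, was last in both activated groups and next to last in naive cells, where Nme2 was last. Umps was in place 9 at 39 °C, 6 at 37 °C and 21 in naive cells, and Ctps in place 8, 9 and 23. Ctps2 went the other way, in place 21 at 39 °C, 22 at 37 °C and 10 in naive cells. Aprt (52.0 ± 2.62 CPM per kb at 39 °C and 53.7 ± 2.80 CPM per kb at 37 °C) and Impdh1 (48.4 ± 2.71 and 50.5 ± 1.09 CPM per kb) lay within the sum of their SDs. In naive cells Impdh1 (46.5 ± 3.55), Impdh2 (44.4 ± 5.68) and Aprt (42.8 ± 7.60 CPM per kb) did too.

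In 5 pairs of paralogs 1 member made up a larger share of the level per kilobase in activated than in naive cells. Ctps made up 65.8% ± 0.387 of the Ctps and Ctps2 level at 39 °C, 67.4% ± 0.593 at 37 °C and 25.4% ± 0.776 in naive cells (SD, n = 3). Uck2 made up 56.1% ± 1.03 of the Uck pair at 39 °C, 54.3% ± 0.264 at 37 °C and 37.0% ± 0.876 in naive cells. Both pairs thus had 1 leading gene in activated and the other in naive cells. Prps1 made up 79.8% ± 1.21 of its pair at 39 °C, 80.4% ± 0.926 at 37 °C and 59.1% ± 3.79 in naive cells. Ampd2 made up 94.95% ± 0.777 of the Ampd2 and Ampd3 level at 39 °C, 95.6% ± 0.690 at 37 °C and 69.9% ± 1.51 in naive cells, so that it led this pair in every group. Related genes outside the 34 are not in these shares. In naive cells Ampd1 had 5.48 CPM per kb, above Ampd3 at 3.80, and Uckl1 had 21.4 CPM per kb, above Uck2 at 15.2. At 39 °C and 37 °C Ampd1 had 0.255 and 0.202 CPM per kb and Uckl1 had 17.9 and 16.9. Impdh2 made up 58.7% ± 0.949 at 39 °C, 59.1% ± 0.660 at 37 °C and 48.8% ± 4.07 in naive cells. These shares follow from the levels already given and were not tested on their own. They rest on the same exon lengths, so which gene of a pair leads can depend on the length used.

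**Figure D3:**
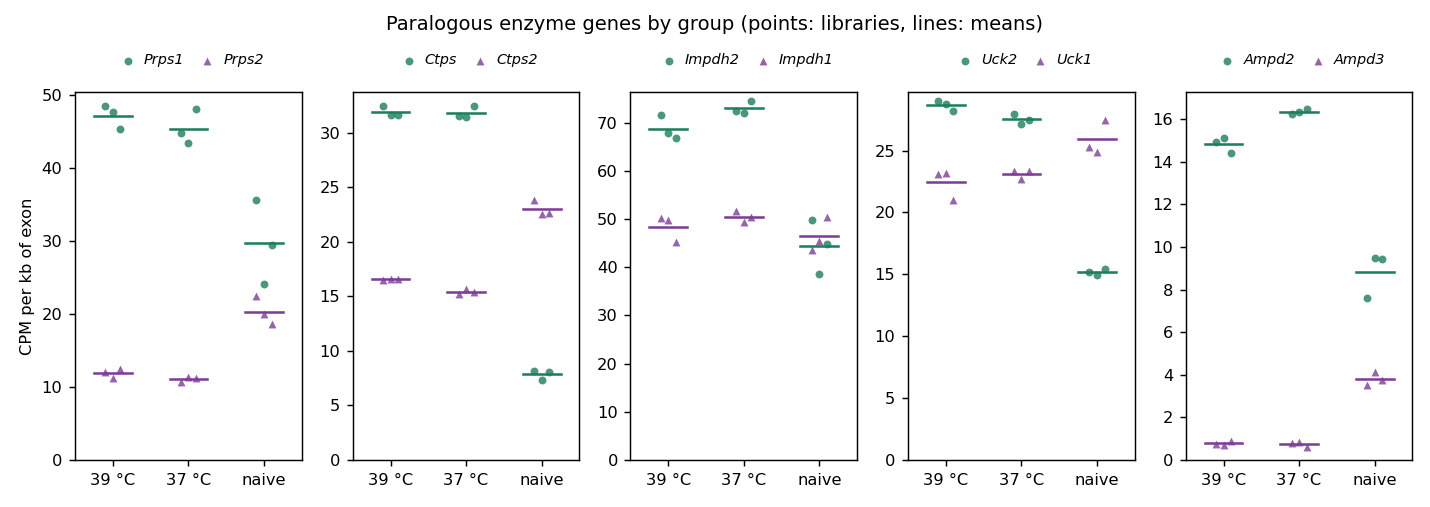
Levels of the paralogous genes of 5 enzymes, in CPM per kb of exon, with 1 point per library and a line at each group mean. Ctps and Uck2 lie above their paralogs at 39 °C and 37 °C and below them in naive cells.

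Activation at 39 °C was set against activation at 37 °C to find what a febrile temperature changed. None of the 34 genes was called in edgeR, against 0.758% of all genes tested, 0.135% higher and 0.623% lower. At an unadjusted p under 0.05 there were 3 of 34, Umps, Atic and Adk, against 7.96% of all genes, and DESeq2 called 1, Umps. The log2 fold changes ran from -0.31 in Umps to 0.25 in Tyms, with a median of 0.0049. For 31 of the 34 the 95% interval lay within a 1.5-fold change either way, the exceptions being the low genes Nme2, Rrm2 and Tyms. The intervals are not adjusted for the number of genes.

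Umps was 1.24-fold lower at 39 °C, with every 39 °C library (105 to 116 CPM) below every 37 °C library (133 to 139 CPM). Its log2 fold change was -0.31 ± 0.074 (95% interval -0.47 to -0.15, edgeR adjusted p = 0.119). DESeq2 gave an adjusted p of 0.0348 for it. Atic, at 132, 133 and 135 CPM at 39 °C and 159, 153 and 156 CPM at 37 °C, also did not overlap, with a log2 fold change of -0.23 ± 0.059 (95% interval -0.35 to -0.10, edgeR adjusted p = 0.177). Both were called by edgeR when the 6 activated libraries were fitted alone (adjusted p = 0.00445 for Umps and 0.0137 for Atic) and when naive library 1 was left out (0.00651 and 0.022). The count of lower calls among the 34 thus depended on which naive libraries were in the fit. Adk was higher at 39 °C in all libraries, 193 to 203 CPM at 39 °C and 162 to 180 CPM at 37 °C, at 0.19 ± 0.077 (edgeR adjusted p = 0.535). Ctps differed by 0.00 ± 0.061 (95% interval -0.13 to 0.14), and Cad by -0.08 with an interval of -0.38 to 0.22.

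**Figure D4:**
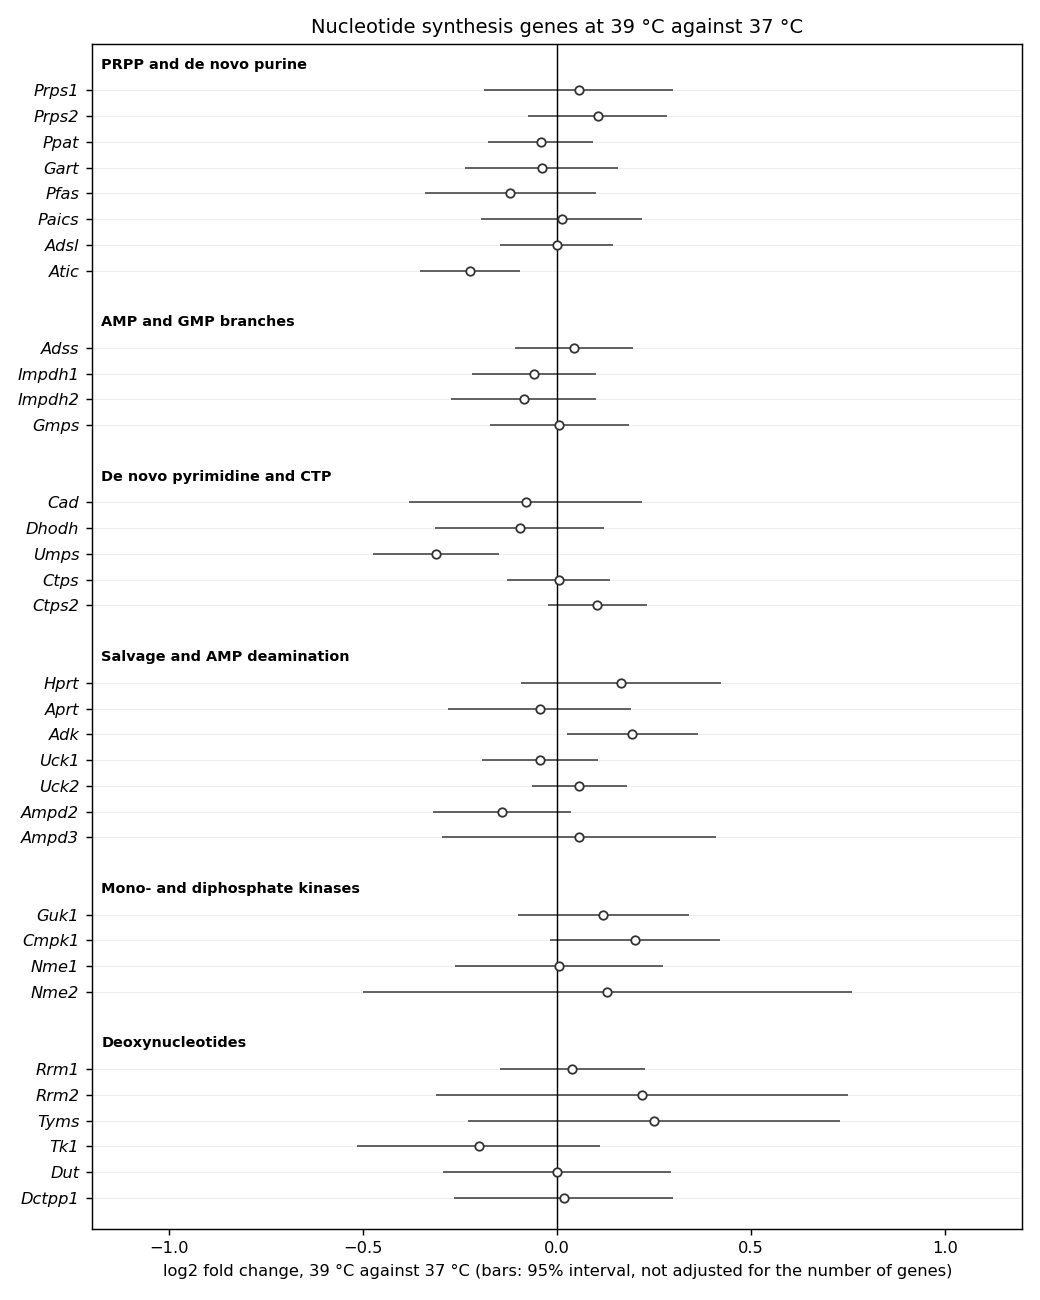
Log2 fold change of each gene at 39 °C against 37 °C with its 95% interval, not adjusted for the number of genes. All points lie between -0.31 and 0.25, and Umps, Atic and Adk have intervals that leave out 0.

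Other genes of nucleotide metabolism were also followed. Of 28 listed further synthesis, kinase and salvage genes 24 were tested. At 39 °C 4 were higher and 10 lower, 16.7% and 41.7%, against 29.2% and 29.8% of all genes tested. At 37 °C 4 were higher and 11 lower, 16.7% and 45.8%, against 30.9% and 31.8%. Dctd, the dCMP deaminase gene, rose by 1.61 and 1.66, and Ak6 and Ak4 rose as well. Ampd1, the muscle-type AMP deaminase gene, had 0.905 CPM at 39 °C, 0.715 CPM at 37 °C and 19.5 CPM in naive cells. Its log2 fold changes were -4.41 and -4.73, and Cmpk2, an interferon-inducible mitochondrial kinase gene, had -3.66 and -3.45. The mitochondrial deoxynucleoside kinase genes Dguok (-0.85 and -0.95) and Tk2 (-0.67 and -0.82) fell too.

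Of 19 listed genes of nucleotide breakdown 12 were tested. At 39 °C 1 was higher and 5 lower, 8.33% and 41.7%, against 29.2% and 29.8% of all genes tested. At 37 °C 1 was higher and 7 lower, 8.33% and 58.3%, against 30.9% and 31.8%. Xdh, xanthine dehydrogenase, rose by 0.62 at both temperatures. Samhd1, which hydrolyses deoxynucleotides, had 463 CPM at 39 °C, 458 CPM at 37 °C and 629 CPM in naive cells and fell by 0.44 and 0.46 on the log2 scale. Ada, adenosine deaminase, had changes of -0.54 and -0.81, and the cytosolic nucleotidase genes Nt5c2 (-0.42 and -0.48) and Nt5c (-0.39 and -0.50) fell as well. Entpd1, an ectonucleotidase gene at 2.09 CPM or less in the group means, had -1.42 and -0.80.

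Among 4 nucleoside transporter genes tested, the equilibrative carriers Slc29a1 (2.01 and 2.15), Slc29a2 (1.83 and 1.99) and Slc29a3 (1.08 and 1.39) rose at 39 °C and 37 °C. The sodium-coupled carrier Slc28a2 fell, with 134 CPM at 39 °C, 115 CPM at 37 °C and 248 CPM in naive cells. Of the 9 folate one-carbon genes that supply purine and thymidylate synthesis, 7 were higher and 2 lower at 39 °C. These were 77.8% and 22.2%, against 29.2% and 29.8% of all genes tested. At 37 °C 6 were higher and 2 lower, 66.7% and 22.2%, against 30.9% and 31.8%. Shmt1, a serine hydroxymethyltransferase, had 138 CPM at 39 °C, 147 CPM at 37 °C and 11.7 CPM in naive cells, at log2 fold changes of 3.55 and 3.65. Its mitochondrial counterpart Shmt2 rose by 2.66 and 2.62, with 519 CPM at 39 °C, 506 CPM at 37 °C and 82.1 CPM in naive cells. Mthfd2 (2.40 and 2.61) and Mthfd1l (1.41 and 1.22), which pass the unit on in mitochondria, rose too, whereas Aldh1l1 (-2.59 and -3.50) and Mthfd2l (-0.62 and -0.83) fell from low levels. No gene of these 4 lists was called between 39 °C and 37 °C in edgeR, where only 0.758% of all genes tested were.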

How the data were processed

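The tables hold raw counts of reads per gene, 1 table per library, as the authors deposited them, with no normalization. The build GRCm38 and the tools DESeq2, HTSeq, HISAT2 and FastQC appear in the submitters' processing notes, without versions. The counting tool, its strand setting and its annotation are not given in the sources used here. Per the labels' protocols, libraries were TruSeq preparations of TRIzol-isolated total RNA. Of 55573 identifiers 55480 matched GENCODE M21 (GRCm38), the source of symbols, coordinates and exon lengths.

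Genes passing filterByExpr (minimum count 10, minimum total 15) were scaled by TMM and fitted in 1 edgeR 4.0.16 quasi-likelihood model of all 9 libraries (R 4.3.3). The 2-sided F tests were adjusted by Benjamini-Hochberg over 13328 genes, with 0.05 as the threshold. A standard error is the fold change over the root of its F. The fit was tested on simulated counts of 39 °C against 37 °C, drawn with the same spread for every gene. It called 7 of 50 genes set to a 1.25-fold change, 29 of 50 at 1.5-fold, 43 of 50 at 2-fold and 50 of 50 at 4-fold. Changes as small as 1.25-fold were thus mostly missed. CPM are TMM-scaled. Exon overlaps and 50-base stretches of the longest transcript shared with other genes were counted, and promoters came from RefSeq (GRCm38.p6). All 34 genes are named, and of other lists up to 4 called genes per direction by adjusted p, except items not reported here. Members and lists were chosen with earlier results of these data known. Alternatives were RLE or library size scaling, no count filter or a minimum of 1 CPM, DESeq2 1.42.0, a replicate block, the 6 libraries of a comparison alone and leaving out each library. A comparison of paralog proteins was planned and not made.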

Additional observations from a re-analysis of the deposited data

How the results depend on the processing

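No called value of a member changed direction under the alternatives run. Of 102 values (34 genes in 3 comparisons), RLE scaling and a minimum of 1 CPM moved no call, and DESeq2 left 99 on the same side of the threshold, library size scaling 100, no count filter 99 and the 6 libraries of a comparison alone 95. Leaving out 1 library gave 20 to 23 higher and 4 to 6 lower members at 39 °C against naive cells, and 19 to 22 higher and 5 to 8 lower at 37 °C against naive cells. Between 39 °C and 37 °C, lower members numbered 1 in DESeq2, 2 with the 6 libraries alone and 0 to 2 when 1 library was left out. Over all genes, the 18 higher and 83 lower calls between the temperatures became 43 and 133 with no count filter, 136 and 265 with the 6 libraries alone, 38 and 113 in DESeq2, and 7 to 89 and 30 to 202 when 1 library was left out, the most without naive library 1. The cause was not tested. Whether replicate numbers pair the libraries could not be settled. Deviations of same-numbered libraries correlated at -0.17 to 0.33 and over 0.1 in 2 of 9 pairs. Those of different-numbered libraries correlated at -0.34 to 0.36 and over 0.1 in 4 of 18 pairs. A replicate block gave 23 higher and 6 lower members at 39 °C against naive cells, 22 and 7 at 37 °C against naive cells, and 0 and 0 between the temperatures, where all genes gave 16 and 81. The block changed 1 of the 102 calls, that of Hprt at 37 °C against naive cells, which was called (0.25, edgeR adjusted p = 0.0424). Depth limits Nme2, Rrm2, Tyms and Ampd3, at about 5 CPM or less in activated libraries.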

Other observations

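The 18 genes of S phase listed were all tested, and none was called between the temperatures in edgeR, against 0.758% of all genes tested. At 39 °C against naive cells 4 were higher and 4 lower, 22.2% each, against 29.2% and 29.8% of all genes tested. At 37 °C 5 were higher and 4 lower, 27.8% and 22.2%, against 30.9% and 31.8%. As a list they were thus called no more often than all genes. Replication factor genes were among those that rose. Pcna, the sliding clamp of DNA polymerase, had 274 CPM at 39 °C, 271 CPM at 37 °C and 169 CPM in naive cells, at log2 fold changes of 0.70 ± 0.092 and 0.68 ± 0.092. Of the replicative helicase genes, Mcm5 rose by 0.68 and 0.66, Mcm2 by 0.37 and 0.46 and Mcm6 by 0.22 and 0.31. Mcm7 had -0.00 in both comparisons and was not called. Mcm3 had 62.8 CPM at 39 °C, 62.5 CPM at 37 °C and 57.9 CPM in naive cells, and Mcm4 had 88.3, 87.8 and 92.9 CPM. Fen1, a flap nuclease gene under 1 CPM in every group mean, was called at 37 °C. The 4 genes that fell at both temperatures were Ccne1, Ccna2, Mki67 and Top2a. Ccne1, the G1/S cyclin gene, had 3.27 CPM at 39 °C, 2.78 CPM at 37 °C and 10.9 CPM in naive cells, at -1.73 and -1.97. Mki67 had -1.19 and -1.16, Top2a -1.14 and -1.29 and Ccna2 -0.87 and -1.44, all at levels of 12.3 CPM or less in naive cells. The markers of B, erythroid and myeloid cells, which were lower in the activated libraries, moved with these genes, and their part was not tested.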
